A study of Prunus persica with 9 samples.

Results

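Among the 210 pre_miRNA genes of the deposited peach table, 62 genes of moderate level are described here. They were chosen by their measured values in 3 steps. The 33 genes that the study lists as differentially expressed miRNAs (DEMs) after PpPep2 were set aside, then the 40 remaining genes with the highest mean of the control libraries, and of the rest those averaging 5 or more normalized counts over all 9 libraries were retained. Of the 137 genes left after the first 2 steps, 75 were under this mean, and 16 of those were at 0 in every library. The 62 genes were therefore selected on their level at t0, on their overall mean and on the absence of a DEM call against t0. For these reasons, their differences from t0 are given below as a description, and the limma counts against t0 are printed without being read as a result. In addition, 5 genes with a mean under 5 at t0 (ENSRNA049996411, ENSRNA049997051, ENSRNA049997086, ENSRNA049996749 and ENSRNA049996450) were admitted only through their higher later libraries, so that their being above t0 is in part set by the selection. Likewise, ENSRNA050003589 and ENSRNA049996398 had a mean under 5 at 1 h. The highest control mean inside the group was that of ENSRNA049996627, with 106.89 normalized counts, and the lowest one outside was that of ENSRNA049996584, with 116.06. At the other limit, ENSRNA049996450 was retained with an overall mean of 5.15 and ENSRNA049996847 was left out with 4.93.

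A pre_miRNA gene encodes a hairpin precursor, from which plant cells cut a short mature miRNA. The mature miRNA is loaded into a silencing complex and guides it to mRNAs of complementary sequence, which are cleaved or translated less. Several plant miRNA families are known to act on transcription factors, hormone signalling and immune receptors, so their levels are of interest after an elicitor. The files name the 62 genes by Ensembl identifiers alone. None of the identifiers is paired with a miRNA name, a sequence or a position in the sources used here, and 0 of the 210 matched the reference table. Consequently, no family, target or role is given for any of them. Several genes can give the same mature miRNA, and the number of different mature miRNAs behind the 62 genes is not known from these files.

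The samples were leaves of juvenile Prunus persica var. Big Top plants, produced in vitro and grown in a glasshouse. PpPep2 is a synthetic copy of a peach plant elicitor peptide, a class of small peptides that plants perceive as a danger signal. Leaves were sprayed with 1 µM PpPep2 and taken after 1 h or 24 h, and the control group was taken at 0 h (t0). Each group had 3 replicates, each pooled over 9 plants with 5 leaves per plant, and the blades were used without their central vein. The labels describe the control as mock, whereas the study describes it as untreated. No control was taken at 1 h or 24 h, so PpPep2, time and handling cannot be told apart in any difference below. The table holds pre_miRNA genes only, so the leaf identity of the samples could not be checked with marker genes.

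All values of a library were whole multiples of a fixed step within 0.01, and this step is what 1 read was worth after the authors' scaling. It was lowest in control replicate 3, at 0.488 normalized counts, and highest in control replicate 2, at 2.844, a 5.83-fold range. Divided by the step, the libraries held between 115519 and 546709 reads on all pre_miRNA genes. The 62 genes took 628 to 3566 of these reads, which was only 0.439% to 0.652% of a library. A value of 0 allowed up to 3 reads, worth between 1.46 normalized counts (control replicate 3) and 8.53 (control replicate 2). Such limits cover counting error only. Thus 13 of the 62 genes were under 3 reads in control replicate 2 and 9 in 24 h replicate 2, whereas 0 to 6 were in each of the other libraries.

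The 62 genes spanned overall means from 5.15 to 118 normalized counts, with a median of 22.8. In the order of the 135 genes at or above this mean of 5, they held places between 59 and 135. Only 10 of them had a mean over 50 normalized counts. The total over the 9 libraries was 39 to 861 reads per gene, with a median of 184.5 reads. At least 3 reads were found in every library for 40 genes and at least 10 reads in every library for 18 genes. The group was therefore near the limit of the depth for a large part of its members.

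**Figure D1:**
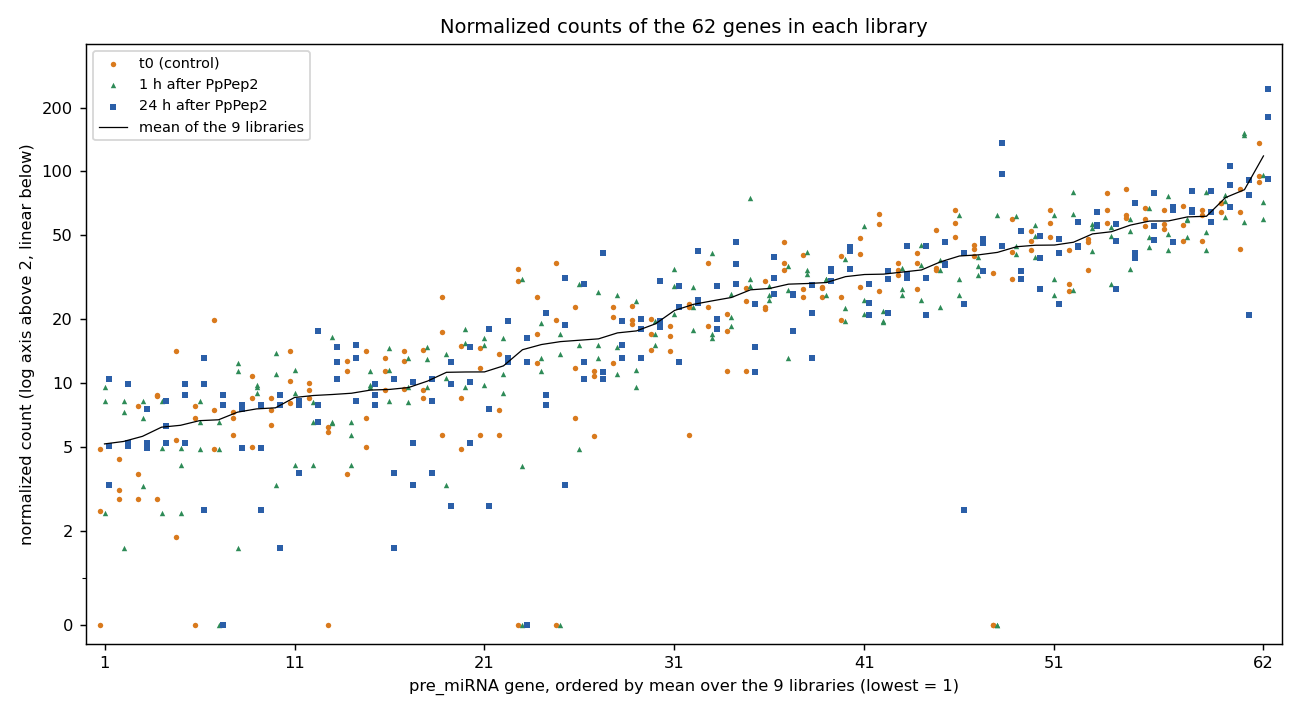
Normalized counts of the 62 genes in each of the 9 libraries, with genes on the x axis ordered by their mean over the libraries (black line) and the normalized count on the y axis (logarithmic above 2, linear below). Orange points stand for t0, green triangles for 1 h and blue squares for 24 h. The means run from 5.15 to 118, and 14 of the 558 values lie at 0.

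ENSRNA049996627 had the highest mean, 118 normalized counts. Its values were 88.93, 136.53 and 95.20 at t0, 59.27, 71.48 and 96.65 at 1 h, and 244.36, 180.41 and 91.85 at 24 h. Replicates 1 and 2 of 24 h were higher than any other library, whereas replicate 3 lay within the control range. ENSRNA049997040 followed with a mean of 81.9, and its values were 64.05, 82.49 and 42.96 at t0, 57.65, 152.58 and 149.07 at 1 h, and 77.08, 20.92 and 90.59 at 24 h. Replicates 2 and 3 of 1 h were high and replicate 2 of 24 h was low, with overlap between all the groups. ENSRNA049996743, with a mean of 75.2, ranged only from 60.90 to 106.60.

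The spread between libraries was larger at lower levels. The coefficient of variation (CV, the SD over the 9 libraries as a percentage of the mean) had a median of 38.2% and ranged from 10.6% to 119%. Its median was 45.4% for the 17 genes with a mean of 5 to 10 normalized counts, 41.8% for 13 genes between 10 and 20, 34.1% for 22 genes between 20 and 50, and 20.6% for the 10 genes above 50. For the 40 genes highest at t0 the median CV was 23.2%, and for the 33 genes of the study's DEM list it was 55.7%. Within a condition, where no difference between time points enters, the median CV of the 62 genes was 27.3% at t0, 30.5% at 1 h and 31.9% at 24 h (n = 3 libraries each). The corresponding values for the 40 highest genes were 23.0%, 19.3% and 15.6%.

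To set this spread against counting noise, the reads of the 3 replicates of each condition were compared by chi-square per degree of freedom, which is about 1 when replicates differ by counting noise alone. The mean over the 3 conditions had a median of 1.68 for the 62 genes. It was under 1 for 18 genes, under 2 for 37 genes and over 5 for 8 genes. By contrast, the medians were 39.4 for the 40 highest genes and 25.2 for the genes of the DEM list. This measure grows with the number of reads at the same relative spread, so the lists cannot be ranked by it. A low mean can hide a single condition with a larger spread, and 18 genes were under 2 in every condition.

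**Figure D2:**
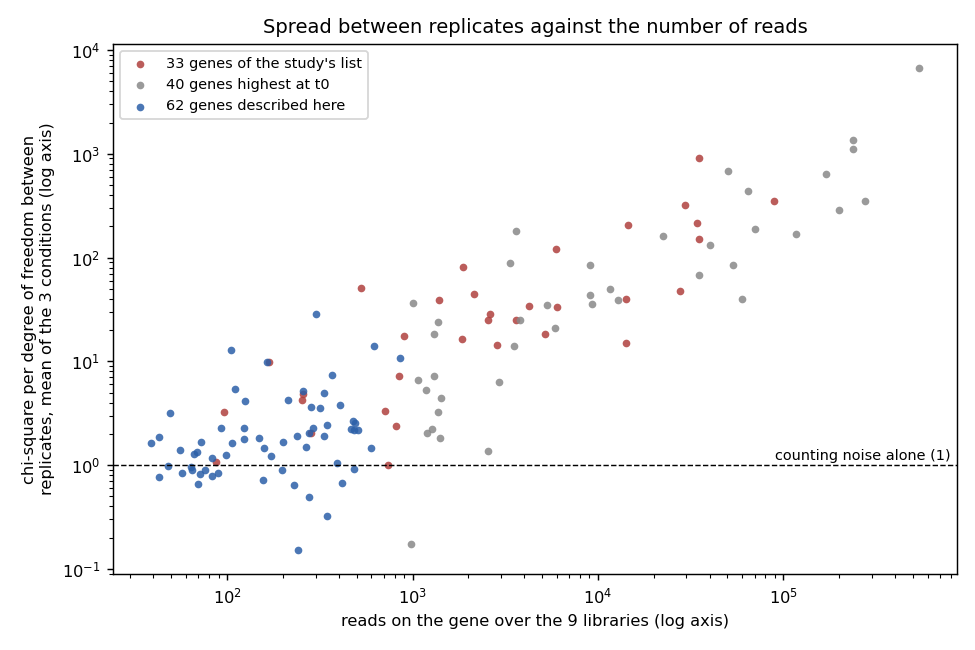
Spread between replicates against depth. The x axis is the number of reads on a gene over the 9 libraries and the y axis the chi-square per degree of freedom between replicates, averaged over the 3 conditions (both axes logarithmic). Each point is a gene, and the dashed line at 1 is counting noise alone. The 62 genes (blue) have 39 to 861 reads and a median of 1.68.

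The steadiest gene was ENSRNA050003151, with a CV of 10.6% and all 9 libraries between 25.39 and 34.44 normalized counts. Its chi-square per degree of freedom, 0.152, was also the lowest of the group. ENSRNA049996784 had a CV of 13.6% and ENSRNA049996249 one of 15.9%. In 11 genes the highest library was under 2 times the lowest. At the other end stood ENSRNA049997224 with a CV of 119%, ENSRNA049996234 with 101% and ENSRNA050003589 with 87.8%. All 3 were at 0 in some libraries.

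Zeros were confined to 7 of the 62 genes, which held 14 zeros among 558 values, and the remaining 55 genes were above 0 in every library. Control replicate 2, where 1 read was worth most, held 5 of the zeros. In 6 genes a library at 0 stood beside a replicate of the same condition with at least 10 reads. ENSRNA049997224 was the clearest of these, with 0, 0 and 33.20 normalized counts at t0, 62.52, 0 and 0 at 1 h, and 44.28, 135.96 and 96.88 at 24 h. Control replicate 3 had 68 reads and 1 h replicate 1 had 77 reads, while the other libraries of those conditions had 0. In control replicate 1, which had 481412 reads in all, a 0 allows at most 1.87 normalized counts, so the gap between the control replicates was larger than the counting limit.

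ENSRNA049996234 was at 0 in replicate 2 of every condition. Its values were 30.47, 0 and 34.66 at t0, 4.06, 0 and 31.12 at 1 h, and 16.40, 0 and 12.58 at 24 h. The limit of 3 reads in these replicates was 8.53, 4.12 and 7.84 normalized counts, so the zeros at t0 and 24 h lay below their companions also at the limit. ENSRNA050003808 was at 0 in replicate 3 of t0 and of 1 h. It had 19.90, 36.98 and 0 at t0, 17.05, 13.75 and 0 at 1 h, and 3.28, 31.38 and 18.87 at 24 h. In both genes the replicates of a condition thus differed more than the means of the conditions.

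ENSRNA049996411, ENSRNA049997051 and ENSRNA049996450 were each at 0 in control replicate 2 only. ENSRNA049997051 had 6.84, 0 and 7.81 at t0, 4.87, 8.25 and 6.55 at 1 h, and 9.84, 13.07 and 2.52 at 24 h. ENSRNA049996450 had 2.49, 0 and 4.88 at t0, 2.44, 9.62 and 8.19 at 1 h, and 3.28, 10.46 and 5.03 at 24 h. Since 3 reads were worth 8.53 normalized counts in that library, these zeros were not distinguishable from the levels of the other control replicates. ENSRNA050003589, at 0 in 1 h replicate 2 and 24 h replicate 1, had at most 12 reads in any library. Zeros occurred in 2 of the 40 highest genes and in 7 genes of the DEM list.

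**Figure D3:**
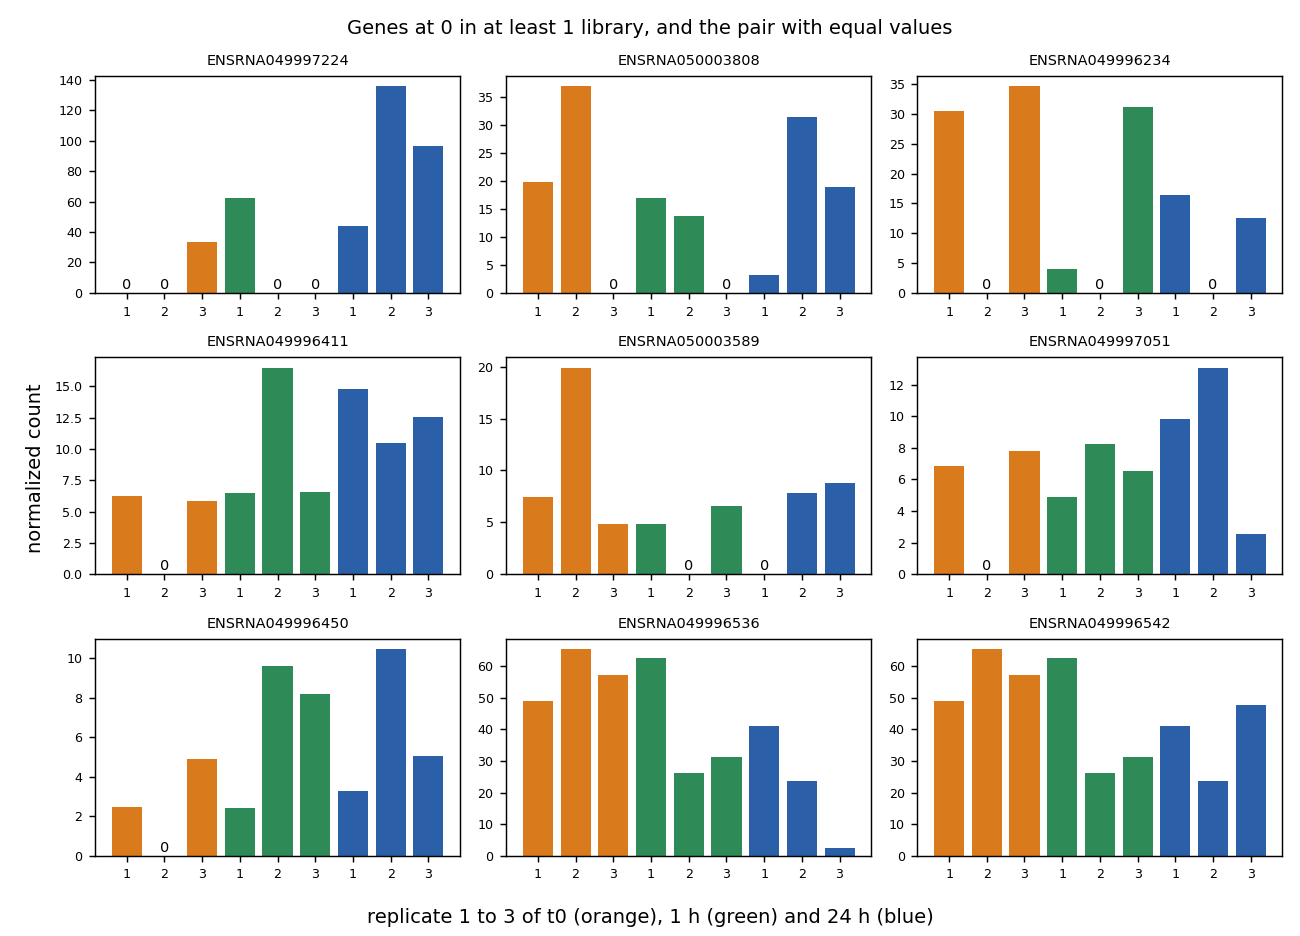
Normalized counts (y axis) in the 9 libraries for the 7 genes at 0 in at least 1 library and for the pair with equal values. Bars are single libraries, with replicates 1 to 3 of t0 in orange, 1 h in green and 24 h in blue. A 0 marks a library in which no reads were assigned to the gene. ENSRNA049996234 is at 0 in replicate 2 of each condition, and ENSRNA049996536 and ENSRNA049996542 differ in 24 h replicate 3 alone.

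Another feature of the group was a pair of genes with the same values. ENSRNA049996536 and ENSRNA049996542 were equal within 0.01 in 8 of the 9 libraries, with 49.13, 65.42 and 57.12 normalized counts at t0, 62.52, 26.12 and 31.12 at 1 h, and 41.00 and 23.53 in replicates 1 and 2 of 24 h. In 24 h replicate 3 they parted, with 2.52 for ENSRNA049996536 and 47.81 for ENSRNA049996542. RSEM divides reads that fit several gene copies between them, so the level of either gene is uncertain. How the reads of this pair were divided was not tested. The sum of the pair was 114 ± 16.3 at t0, 79.8 ± 39.5 at 1 h and 59.8 ± 19.3 at 24 h (SD, n = 3 each). No other pair of the 62 genes met this criterion.

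The question of the study was which miRNAs change after PpPep2, and for the 62 genes the differences from t0 were centred near 0. Differences are given as the mean log2(normalized count + 1) of a time point minus that of t0, a scale that understates changes at low counts. At 1 h the median difference was −0.01 over the 62 genes and −0.03 over all 135 genes. At 24 h these medians were 0.02 and −0.01. There were 31 genes above and 31 below t0 at 1 h, and 32 above and 30 below at 24 h. Differences within 0.5 were found for 39 genes at 1 h and 33 at 24 h, and those over 1 for 4 and 7 genes. Of all 135 genes, 77 and 59 were within 0.5, and 20 and 34 were over 1. The selection left out the DEM list, so nothing is read from the smaller differences of the 62 genes. This balance depended on the authors' scaling. With libraries scaled to the same total, 22 genes were above t0 and 40 below at 1 h, and 23 and 39 at 24 h, while with the same upper quartile it was 42 and 20 at 1 h, and 37 and 25 at 24 h. These scalings moved the median of all 135 genes to −0.20 and 0.25 at 1 h and to −0.30 and 0.16 at 24 h, so a difference is best read relative to these shifts.

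To find the genes that moved beyond every control library, those with all 3 libraries of a time point above the highest or below the lowest of the 3 control libraries were counted. At 1 h, 4 of the 62 genes (6.45%) lay above the control range, beside 8.89% of all 135 genes, and 5 (8.06%) lay below it, beside 12.6%. At 24 h, 8 genes (12.9%) lay above, beside 20% of all genes, and 4 (6.45%) lay below, beside 21.5%. The 4 below include ENSRNA049996536 and ENSRNA049996542, which had equal values in 8 libraries and are counted here as separate genes. As the selection left out the genes that the study called against t0, nothing can be read from these shares being lower than in all genes. In all, 19 genes stood outside the control range, 9 of them at 1 h and 12 at 24 h. ENSRNA049996411 was above at both time points and ENSRNA049996883 below at both.

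**Figure D4:**
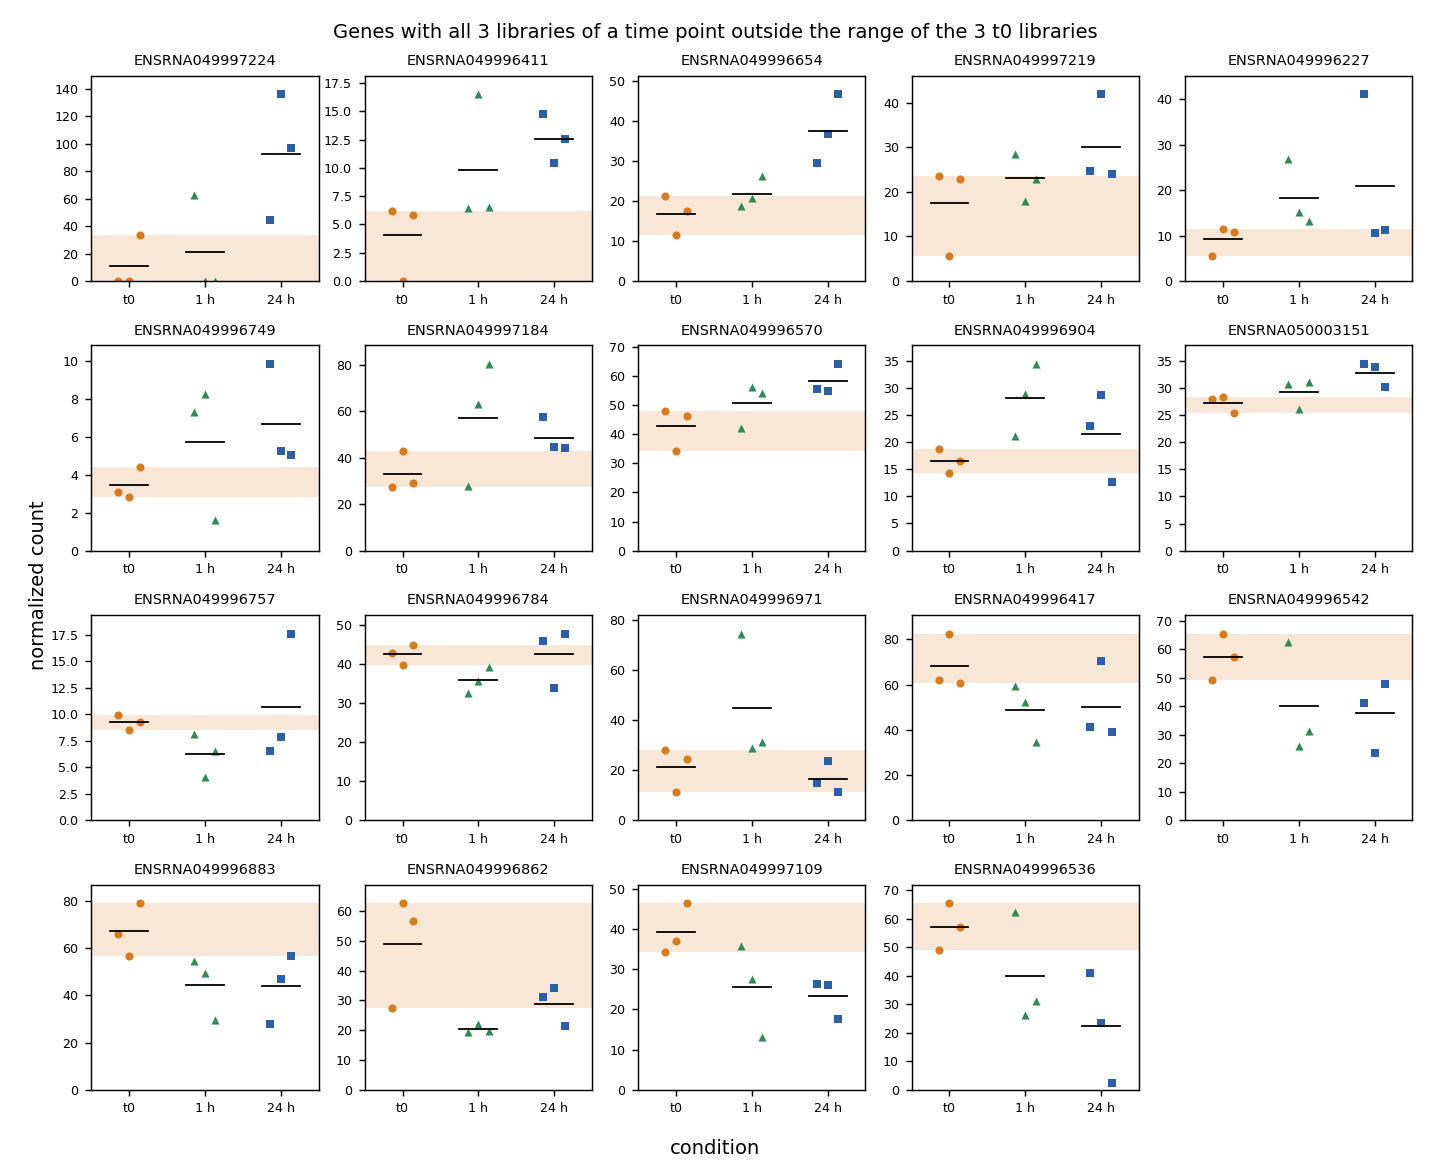
The 19 genes with all 3 libraries of a time point outside the control range (shaded band), one panel per gene, with the normalized count on the y axis from 0 and the condition on the x axis. Points are single libraries (replicates 1 to 3 from left to right) and black lines the means of 3 libraries. In several panels, such as ENSRNA049997219 and ENSRNA049996784, the nearest library lies close to the edge of the band.

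Above the control range at 1 h, ENSRNA049996411 had the largest difference, 1.44. Its values were 6.22, 0 and 5.86 at t0, 6.50, 16.50 and 6.55 at 1 h, and 14.76, 10.46 and 12.58 at 24 h. At 1 h only replicate 2 was clear of the control, and without control replicate 2 (the library at 0) the difference was 0.50. At 24 h all replicates were clear of it, with a difference of 1.88, or 0.94 without the same library. ENSRNA049996971 had 27.98, 11.38 and 24.41 at t0 and 74.70, 28.87 and 31.12 at 1 h, a difference of 1.00 that became 0.57 without 1 h replicate 1. At 24 h it had 14.76, 23.53 and 11.32, of which only the last lay outside the control range, just under its lowest library.

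ENSRNA049996227 and ENSRNA049996904 were the other genes above the control at 1 h. ENSRNA049996227 had 5.60, 11.38 and 10.74 at t0 and 26.79, 15.12 and 13.10 at 1 h, a difference of 0.91. At 24 h, replicate 1 reached 41.00 while the others, 10.46 and 11.32, lay within the control range. ENSRNA049996904 had 18.66, 14.22 and 16.60 at t0, 21.11, 28.87 and 34.40 at 1 h, and 22.96, 28.76 and 12.58 at 24 h. Its difference at 1 h was 0.72. It was the only gene of these 4 that stayed above the control range at 1 h under both other scalings, and the only one whose gap exceeded the worth of 1 read.

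Below the control range at 1 h, ENSRNA049996862 had the largest difference, −1.14. It had 27.36, 62.58 and 56.63 at t0, 19.49, 21.99 and 19.66 at 1 h, and 31.16, 33.99 and 21.39 at 24 h. The 1 h replicates were close together, whereas control replicate 1 was well under the other controls. ENSRNA049996883 had 65.92, 56.89 and 79.09 at t0, 54.40, 49.49 and 29.49 at 1 h, and 27.88, 47.06 and 56.62 at 24 h. Its differences were −0.62 at 1 h and −0.65 at 24 h, and became −0.36 without 1 h replicate 3 and −0.36 without 24 h replicate 1. At both times its highest library lay under the lowest control by less than 1 read.

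The other 3 genes below the control at 1 h had smaller differences. ENSRNA049996757 had 9.95, 8.53 and 9.28 at t0, 8.12, 4.12 and 6.55 at 1 h, and 6.56, 7.84 and 17.61 at 24 h, with a difference of −0.54 at 1 h, or −0.30 without 1 h replicate 2. ENSRNA049996417 had 62.19, 82.49 and 60.54 at t0, 59.27, 52.24 and 34.40 at 1 h, and 41.00, 70.59 and 39.00 at 24 h. Its difference at 1 h was −0.51, or −0.28 without 1 h replicate 3. ENSRNA049996784, among the steadiest genes, had 42.91, 39.82 and 44.91 at t0, 32.48, 35.74 and 39.31 at 1 h, and 45.92, 33.99 and 47.81 at 24 h. Its difference at 1 h was only −0.24, and it turned to 0.03 with libraries scaled to the same upper quartile. None of these 5 genes stayed below the control range under both other scalings.

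At 24 h, ENSRNA049997224 had the largest difference above the control, 4.71. Its 24 h libraries, with 27 to 77 reads each, were all above the only control library with reads, 33.20. The size of this difference rests on the zeros, and it was 6.40 without control replicate 3 and 3.86 without control replicate 1. ENSRNA049996654 had 21.14, 11.38 and 17.58 at t0, 18.68, 20.62 and 26.21 at 1 h, and 29.52, 36.60 and 46.55 at 24 h. Its mean was 16.7 ± 4.94 at t0, 21.8 ± 3.91 at 1 h and 37.6 ± 8.56 at 24 h (SD, n = 3 each). The 24 h libraries overlapped with neither the control nor the 1 h libraries, and its difference from t0 was 1.14.

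The remaining genes above the control at 24 h had differences under 1. ENSRNA049997219 had 23.63, 5.69 and 22.95 at t0, 28.42, 17.87 and 22.93 at 1 h, and 24.60, 41.83 and 23.90 at 24 h. Its difference of 0.93 became 0.31 without control replicate 2, where the value of 5.69 stood for 2 reads. ENSRNA049996749, one of the lowest genes, had 3.11, 2.84 and 4.39 at t0, 7.31, 8.25 and 1.64 at 1 h, and 9.84, 5.23 and 5.03 at 24 h, with a difference of 0.75, or 0.48 without 24 h replicate 1. It had 12 reads in all at 24 h, and its gap to the control was under 1 read.

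ENSRNA049997184 had 27.36, 42.67 and 29.29 at t0, 27.61, 63.23 and 80.27 at 1 h, and 57.40, 44.45 and 44.04 at 24 h, with a difference of 0.56. Replicates 2 and 3 of 1 h were higher than any 24 h library, but replicate 1 was within the control range. ENSRNA049996570 had 47.89, 34.13 and 46.38 at t0 and 55.76, 54.91 and 64.17 at 24 h, with a difference of 0.45, or 0.30 without control replicate 2. ENSRNA050003151 differed by only 0.26 and turned to −0.02 with libraries scaled to the same total. Only ENSRNA049996411 and ENSRNA049996654 of these 8 genes stayed above the control range under both other scalings. Of these, ENSRNA049996411 had passed the minimum mean only through its 1 h and 24 h libraries, as had ENSRNA049996749, so their position above the control is no support for a change.

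Below the control at 24 h, ENSRNA049996536 had a difference of −1.91, or −0.85 without 24 h replicate 3. ENSRNA049996542, with which it shared its other values, had −0.65, or −0.35 without 24 h replicate 2. The sum of the pair differed from t0 by −0.96 at 24 h. ENSRNA049997109 had 34.20, 36.98 and 46.38 at t0, 35.73, 27.49 and 13.10 at 1 h, and 26.24, 26.15 and 17.61 at 24 h, with a difference of −0.73. All its 24 h libraries were under the control, and 2 of 3 were so at 1 h. ENSRNA049997109 and ENSRNA049996883 stayed below the control range at 24 h under both other scalings.

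In the fit of limma to the 135 genes, adjusted by Benjamini-Hochberg, 0 of the 62 genes were called at 1 h against t0, beside 0.741% of all genes. An unadjusted limma p under 0.05 was found there for 1 of the 62 genes and for 17 of all 135 genes. At 24 h, 1 of the 62 genes was called, ENSRNA049996654, beside 14.1% of all genes. An unadjusted limma p under 0.05 was found at 24 h for 4 of the 62 genes and for 44 of all 135 genes. All these counts rest on values that the selection used, and nothing is read from them. The call of ENSRNA049996654 was lost without any one of the control libraries, without 1 h replicate 2 and without any one of the 24 h libraries. In these fits the calls over all 135 genes fell as well, from 19. They were 0, 7 and 0 without control replicates 1, 2 and 3, and 15 without 1 h replicate 2. Without 24 h replicates 1, 2 and 3 they were 5, 10 and 7.

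The difference between 24 h and 1 h was not itself a criterion of the selection, but the 1 h and 24 h libraries entered it through the overall mean and through the removal of the DEM list. In the limma fit, 0 of the 62 genes differed between 24 h and 1 h at a Benjamini-Hochberg adjusted p under 0.05, beside 0% of all 135 genes. An unadjusted p under 0.05 was found for 5 of the 62 genes and for 18 of all genes, 10 of them in the DEM list that had been set aside, so these counts are shaped by the selection. ENSRNA049996627 had the lowest adjusted p of the group, 0.325 (limma, Benjamini-Hochberg), with a log2 fold change of 1.09 and an SE of 0.37. Over the 18 alternative fits its adjusted p in limma ran from 0.0598 to 0.496. ENSRNA049996971 had a log2 fold change of −1.31 with an SE of 0.48 and an adjusted p of 0.327 in the same fit. For ENSRNA049996654 the fold change was 0.75 (SE 0.30), for ENSRNA049996698 −0.81 (SE 0.32) and for ENSRNA049997224 4.41 (SE 1.83) on the log2 scale, each with a limma adjusted p of 0.336. The largest of these values had the largest error.

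By ranges, 4 of the 62 genes (6.45%) had all 24 h libraries above all 1 h libraries, beside 11.9% of all 135 genes. In the other direction, 3 genes (4.84%) had them all below, beside 9.63%. The genes above were ENSRNA050003595, with 5.68, 4.12 and 6.55 at 1 h and 8.20, 13.07 and 15.10 at 24 h, ENSRNA049996398, ENSRNA049996654 and ENSRNA050004107, with differences of 1.00, 0.89, 0.75 and 0.32, respectively. Those below were ENSRNA049996971, ENSRNA049996362 and ENSRNA049996698, with differences of −1.31, −0.88 and −0.81. For ENSRNA049996398 and ENSRNA049996362 the gap between the nearest 1 h and 24 h libraries was under 1 read, at 0.12 and 0.42 of a read. ENSRNA049996971 thus stood above the control at 1 h and under its own 1 h level at 24 h, whereas ENSRNA049996654 stood higher at 24 h than in either other condition. The limma test found none of these differences past the threshold, and 0 of all 135 genes passed it. With 3 libraries per condition, and few reads on many of the 62 genes, this does not show that the conditions were equal.

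The other 43 genes overlapped with the control at both time points. Their differences ranged from −1.52 to 1.34 at 1 h and from −1.21 to 1.28 at 24 h. Within 0.5 were 33 of them at 1 h and 26 at 24 h, and 2 and 3 exceeded 1. At 1 h, 7 genes had 2 of 3 libraries above the control range and 8 had 2 of 3 below it, and at 24 h these numbers were 9 and 11. The same counts were not made over all 135 genes, so nothing is read from them. The extremes in this set belonged to genes with few reads. ENSRNA050003589, with −1.52 at 1 h, had 49 reads in all libraries together. ENSRNA049996450, with 1.34 at 1 h and 1.28 at 24 h, had 39 reads, and ENSRNA049997170, with −1.21 at 24 h, had 83.

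For comparison, the same counts were made in the other genes of the table. Above the control at 24 h were 17.5% of the 40 highest genes and 36.4% of the genes of the DEM list, and below it were 12.5% and 60.6%. The DEM list was chosen by the study on the same libraries and the same contrast, so its shares describe that choice. Between 24 h and 1 h, all 24 h libraries lay above those of 1 h in 8 of the 40 highest genes and 4 of the 33 genes of the DEM list, and below in 4 and 6. The lists differ in depth, and whether their shares differ was not tested.

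**Figure D5:**
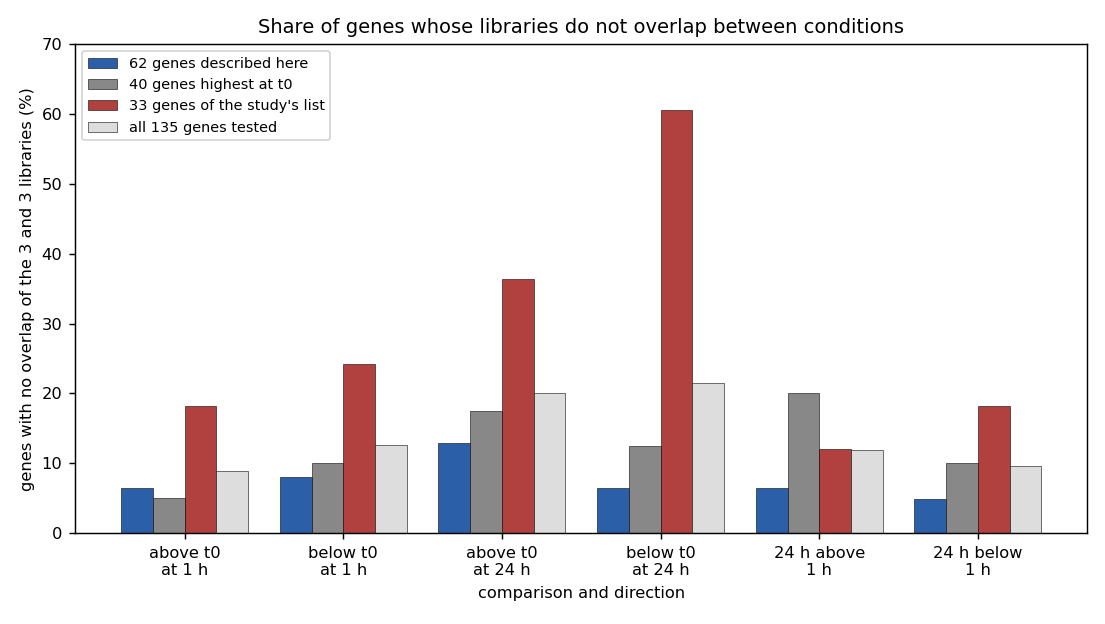
Share of genes (y axis, %, from 0) whose 3 libraries of a condition do not overlap with the 3 of another, for 6 comparisons on the x axis. Bars stand for the 62 genes described here (blue), the 40 genes highest at t0 (grey), the 33 genes of the DEM list (red) and all 135 genes tested (light grey). The blue bars run from 4.84% to 12.9%, and the red bar for 24 h below t0 reaches 60.6%.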

How the data were processed

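The 9 small RNA libraries comprised 3 replicates each of t0, 1 h and 24 h, grouped by the sample labels. According to the methods and the submitters' processing notes, reads were trimmed with Trim Galore 0.6.6, mapped with STAR 2.5.3a to Prunus_persica_NCBIv2.38, counted with RSEM 1.3.0 (seed length 16, annotation of Ensembl Plants release 48) and tested with DESeq2 1.26.0. The study names DESeq2 for its normalized expression values, and the scaling of the table is taken to be that of DESeq2 without a separate description. The deposited values are a signal that the authors made, normalized counts per pre_miRNA gene with 2 decimals, in which RSEM's division of reads between genes is included. All 9 columns of values were mapped to samples, and 0 were left unused.

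The 62 genes, the lists and the alternatives were chosen with earlier results of these data known. The value of 1 read in a library was found as the step of which all its values were whole multiples within 0.01. Numbers of reads, and the chi-square of reads between replicates, come from dividing the values by this step. Too few low values per library were left to establish the step as exact for a count test, so none was run. After adding 1 and taking log2, the 135 genes averaging 5 or more were fitted with limma 3.58.1 (R 4.3.3) in 1 model of all 9 libraries, with a trend on the mean in the empirical Bayes step and no block. The p-values of each comparison were adjusted by Benjamini-Hochberg, with a threshold of 0.05. The script was tested on simulated data. The p-values measure only the spread between these replicates, each a pool of leaves. Tables were made with Python 3.11.15, numpy 2.4.6 and pandas 2.3.3, and plots with matplotlib 3.10.9.

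Named were the genes outside the control range at a time point, those at 0 in a library, the 3 steadiest, the 3 most variable and the 3 highest genes, genes at the limits of the selection, genes called by limma and genes with equal values in at least 8 libraries. The genes apart between 24 h and 1 h, and those with an unadjusted p under 0.05 in that comparison, were named after their values were seen, as were the extremes among the 43 overlapping genes and the genes with a mean under 5 in a condition. Alternatives were other added values (0.5 and 5), no minimum mean or one of 20, no trend, only the libraries compared, a replicate block, 2 other scalings, a gap of more than 1 read, 50 genes dropped, a minimum mean of 10 and each library left out in turn. The study's own test statistics, target predictions and mRNA data were not used here.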

Additional observations from a re-analysis of the deposited data

Results flagged for a closer look

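In 2 of the 62 genes every 1 h library lay above the control mean and every 24 h library below it. Both genes overlapped with the range of the control libraries at both time points. This pattern was not counted over all 135 genes, so nothing is read from its number. ENSRNA049996362 had 4.98, 8.53 and 10.74 normalized counts at t0, 8.93, 9.62 and 9.83 at 1 h, and 4.92, 7.84 and 2.52 at 24 h. Its mean was higher than at t0 by 1.38 at 1 h and differed from it by −2.99 at 24 h. ENSRNA049996698 had 40.42, 25.60 and 27.83 at t0, 41.41, 34.37 and 32.76 at 1 h, and 21.32, 13.07 and 28.94 at 24 h, with differences of 4.90 and −10.2 normalized counts. The difference between 24 h and 1 h was tested with limma and did not pass the threshold, with a Benjamini-Hochberg adjusted p of 0.456 for ENSRNA049996362 and 0.336 for ENSRNA049996698. Groups of 3 libraries were not tested for single libraries far from the others.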

How the results depend on the processing

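Of the 62 genes, the number called by limma between 24 h and 1 h was 0 under every alternative, beside 0 to 2 of all genes tested. With each library left out in turn it was 0 to 0. At 1 h against t0 it was 0 except for 1 without 1 h replicate 1 (range 0 to 1). Without that library 18 of all 135 genes were called, against 1 in the fit reported above. At 24 h against t0 the count of 1 became 0 with no minimum mean, 0 with the replicate block and 0 with libraries scaled to the same total. It was 2 with only the 6 libraries compared and 0 to 2 with each library left out. Over all genes, 19 of 135 were called in the fit reported above. In the same order, the alternatives gave 16 of 194, then 10, 22 and 31 of 135, and 0 to 35 of 135. Libraries with the same replicate number had correlations from −0.406 to 0.169 over 9 pairs, so a pairing by number was not established. Only 2 of 9 libraries correlated best with their own number in both other conditions. Each 1 h library did so among the t0 libraries. Why the call was lost under the block was not tested. Scaling to the same total gave 1 gene above the control range at 1 h in place of 4, 2 above at 24 h in place of 8 and 10 below at 24 h in place of 4. Over all 135 genes, the shares under this scaling were 9.63%, 11.1% and 31.9%. Scaling to the same upper quartile gave 10 above and 0 below at 1 h and 2 below at 24 h. These counts stood beside 23.7%, 3.7% and 17.8% of all genes. With a gap of more than 1 read, 1 gene was above and 2 were below at 1 h and 4 were above at 24 h. Of all genes, 6.67%, 10.4% and 17% had such a gap. With 50 genes dropped, 52 genes remained, of which 3 were below at 1 h and 1 at 24 h, beside 12.6% and 21.5% of all genes. As fewer libraries overlap less, leaving out each in turn gave 5 to 9 above and 6 to 13 below at 1 h. At 24 h it gave 8 to 14 above and 5 to 9 below. Over all genes, these ranges were 10.4% to 20%, 14.1% to 26.7%, 21.5% to 25.9% and 25.2% to 29.6%. The shifts in the counts of the 62 genes are therefore not read as a result about them. The difference of ENSRNA049996784 at 1 h turned to 0.0322 with the same upper quartile and that of ENSRNA050003151 at 24 h to −0.0195 with the same total. The other 278 of 280 values of single genes under the alternatives had the same sign as reported. Depth limits most statements, as 22 of the 62 genes were under 3 reads in at least 1 library.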
